A study of Mus musculus with 10 samples.

Results

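The cardiac myosin heavy chain genes were followed in mouse left ventricle (LV) after constriction of the ascending aorta in newborns (nAAC) and after sham surgery. The 5 genes, taken by name from 55401 genes in the tables, were Myh6, Myh7, Myh7b, the long noncoding RNA Mhrt and the miRNA hairpin gene Mir208b, and all 5 passed the filter on low values (mean of at least 1 FPKM). Total RNA was sequenced from 5 nAAC and 5 sham hearts at 4 weeks of age, and every library is labelled WT. The WT pups came from a C57BL/6 background, were operated on within a day of birth, and stayed with their mothers, with both sexes assigned at random. With 5 mice and 5 libraries in each group, the p-values measure the spread between mice. The labels name no drug or other agent for either group. FPKM, the unit of the levels below, scales sequenced fragments to transcript length and library size, so it compares genes per length.

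Myosin heavy chains are the motor proteins of the thick filament of the sarcomere. Myh6 encodes the alpha chain, which hydrolyses ATP fast and dominates in the adult mouse ventricle, and Myh7 encodes the slower beta chain, which dominates in the fetal ventricle and is known to return under pressure load. Both lie in tandem on chromosome 14, each with a miRNA hairpin in an intron (Mir208a in Myh6, Mir208b in Myh7), while Myh7b lies on chromosome 2 and hosts Mir499. Mhrt is transcribed from the opposite strand of Myh7 and is known to bind the chromatin remodeller Brg1, the product of Smarca4.

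Positions are on mm10, the build named in the submitters' processing notes. Myh6 (ENSMUSG00000040752) spans chr14:54941921-54966927 on the minus strand, and Myh7 (ENSMUSG00000053093) spans chr14:54970684-54994626 on the same strand. Mhrt (ENSMUSG00000097652) spans chr14:54968678-54974349 on the plus strand and runs from the gap between both genes into the 3' end of Myh7. Of its 1214 exonic bases in GENCODE M21, 463 (38.1%) fall in exons of Myh7-201. Mir208b (ENSMUSG00000077928, chr14:54975700-54975776) is intronic, in intron 31 of the 41 exons of Myh7-201. Myh7b (ENSMUSG00000074652) spans chr2:155611212-155634307 on the plus strand. The library kit was taken as one that does not mark strand, and how the quantification assigned strand is not stated. Without strand, reads from Mhrt and from Myh7 cannot be told apart where their exons overlap.

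The hairpins hosted by the cardiac myosin genes are shown by their mature guide strands (RefSeq, GRCm38.p6), since the seed, bases 2 to 8 in capitals, sets which mRNAs a miRNA pairs with. They lie at chr14:54949072-54949093, chr14:54975710-54975731 and chr2:155622893-155622913.
miR-208a-3p: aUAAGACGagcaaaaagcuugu
miR-208b-3p: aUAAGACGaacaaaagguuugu
miR-499-5p: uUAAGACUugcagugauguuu
The miRNAs of Myh6 and Myh7 shared the whole seed and differed at 3 of 22 bases outside it (G10A, A16G and C18U, miR-208a base first, counted from the 5' end). The seed of the Myh7b miRNA matched theirs over its leading 6 of 7 bases, so the 3 strands carried 2 distinct seeds.

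Myh6 and Myh7 are close paralogs, which bears on how reads were divided between them. Their coding sequences, 5817 and 5808 bases long in Myh6-201 and Myh7-201, were identical at 91.7% of aligned bases, with a longest identical run of 245 bases. Of all 150-base stretches of the Myh6-201 transcript, 5.53% also occurred in Myh7-201, as did 22.6% of 50-base stretches. The 60 coding bases in which they differed most are shown with the differing bases in capitals (coding bases 3226 to 3285 of Myh6 and 3220 to 3279 of Myh7).
Myh6-201: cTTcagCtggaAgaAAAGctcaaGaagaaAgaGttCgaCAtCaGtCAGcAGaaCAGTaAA
Myh7-201: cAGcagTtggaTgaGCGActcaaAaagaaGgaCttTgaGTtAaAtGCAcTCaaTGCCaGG
In that window 33 of 60 bases were the same, so reads from it tell the genes apart.

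Estimated depth was 4.86 to 6.82 gigabases in nAAC and 5.06 to 5.24 in sham libraries. Mitochondrial transcripts took 32.8 to 39.9% of TPM in nAAC and 33.7 to 49.8% in sham libraries. Sex was not labelled, and Xist, the transcript of the inactive X chromosome, exceeded 1 FPKM in 4 nAAC and 2 sham libraries. Ddx3y, a gene of the Y chromosome, was at 13.6 FPKM in nAAC replicate 2 and at 10.4 to 16.3 FPKM in sham replicates 1 to 3. It was listed at 0 in every library with Xist above 1 FPKM. By these transcripts nAAC held 4 female and 1 male libraries, and sham held 2 female and 3 male. Of 11867 genes tested with limma, 31.7% had an adjusted p below 0.05 and 5.91% were DEGs (adjusted p below 0.05 and absolute log2 FC above 1). DEGs higher in nAAC made up 5.01% and DEGs lower in nAAC 0.893% of tested genes. The median log2 FC of all tested genes was 0.22, and 84.9% of DEGs were higher in nAAC; after median-ratio scaling the median was near 0 and 64.3% were higher. Cardiomyocyte markers summed to 13472 to 18677 FPKM in nAAC and 13614 to 23546 FPKM in sham libraries, and 4 of 12 rose (Actc1, Actn2, Ldb3, Smpx) and 2 fell (Pln, Tnni3). At the same threshold, adjusted p below 0.05, 27.1% of all tested genes rose and 4.6% fell. The median log2 FC of the 12 markers was 0.28. In whole LV, fewer cells of a type and less RNA per cell cannot be told apart.

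Of the 5 genes, 3 were DEGs: Myh7 rose, Mhrt and Mir208b fell, and Myh6 and Myh7b did not pass. The groups did not overlap for the same 3 genes, against 22.3% of all tested genes. The median log2 FC of the 5 was -0.27.

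**Figure D1:**
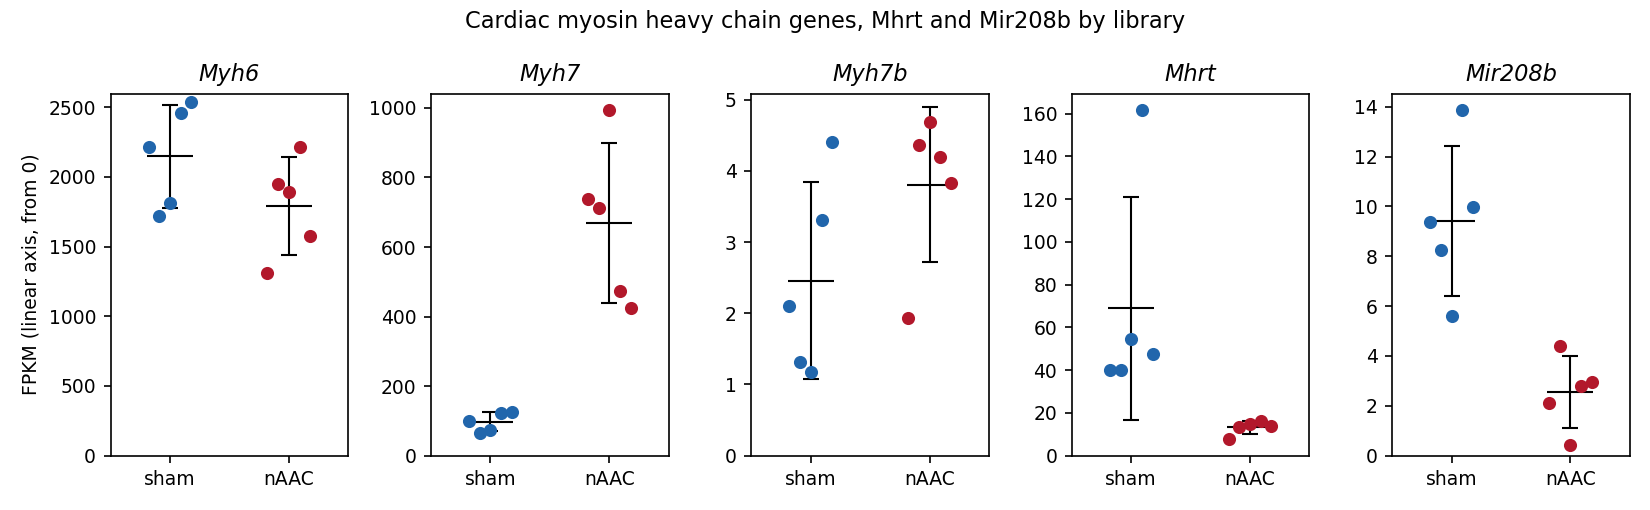
FPKM of Myh6, Myh7, Myh7b, Mhrt and Mir208b in each of 5 sham (blue) and 5 nAAC (red) libraries on linear axes from 0, with points in replicate order and black marks for the mean ± SD. Myh7 lay above all sham libraries in every nAAC library, Mhrt and Mir208b lay below them, and Myh6 and Myh7b overlapped.

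The beta chain gene Myh7 was the member that rose. It stood at 739, 713, 995, 475 and 424 FPKM in nAAC libraries 1 to 5. In sham libraries 1 to 5 it stood at 99.1, 66.4, 72.6, 123 and 125 FPKM. The lowest nAAC library held more than 3 times the level of the highest sham library. Mean FPKM was 669 ± 230 in nAAC and 97.3 ± 27.4 in sham (SD, n = 5 per group, here and below). Myh7 rose by 2.75 on the log2 scale (SE 0.25, limma adjusted p = 5.81e-06). Among nonmitochondrial genes ordered by mean FPKM, Myh7 moved from rank 394 in sham to rank 49 in nAAC.

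Myh6, the alpha chain gene, remained the most abundant of the 5 in every library. Its FPKM in nAAC libraries 1 to 5 was 1312, 1950.1, 1896, 2218 and 1575. In sham libraries it was 2215, 1720.5, 1813, 2458 and 2538. The groups overlapped, with 3 nAAC libraries inside the sham range. The means were 1790.1 ± 352 and 2149 ± 370.1 FPKM, and the log2 FC was -0.27 (SE 0.19, limma adjusted p = 0.288). Its call rested on the scaling: relative to the typical gene, by median-ratio scaling, the log2 FC was -0.55 (SE 0.17, limma adjusted p = 0.027). Myh6 ranked 17 in sham and 20 in nAAC.

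The share of Myh7 in Myh6 plus Myh7, which cancels any scaling common to a library, was 36.0, 26.8, 34.4, 17.6 and 21.2% in nAAC libraries 1 to 5. In sham libraries it was 4.28, 3.72, 3.85, 4.78 and 4.69%. Sham libraries lay close together, whereas nAAC libraries spread widely, replicates 4 and 5 being the lowest of their group. The mean share was 27.2 ± 8.03% in nAAC and 4.26 ± 0.478% in sham, a difference of 22.9 percentage points (two-sided exact permutation test, p = 0.00794, the smallest that 5 against 5 can give). Taken from deposited coverage, the shares were 23.6 ± 7.42% and 3.51 ± 0.721%. Myh6 thus stayed above Myh7 in all 10 libraries, by 1.77 to 4.67 times in nAAC and 19.9 to 25.9 times in sham.

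The summed level of both genes was 2051, 2663, 2891, 2693 and 1998 FPKM in nAAC libraries, and 2314, 1787, 1886, 2582 and 2663 FPKM in sham libraries. The ranges overlapped, with 3 nAAC libraries inside the sham range and 2 above it. Means were 2459 ± 407 and 2246 ± 397 FPKM, a log2 difference of 0.13 (two-sided exact permutation p = 0.437) that took the opposite sign after median-ratio scaling (-0.15, exact permutation p = 0.294). Set against a cardiomyocyte score, the mean log2(FPKM + 1) of the 12 markers, the sum differed by -0.0031 on the log2 scale (exact permutation p = 0.992, 0.992 adjusted over 5 ratios). Myh6 against the score was lower in nAAC by a log2 difference of -0.41 (exact permutation p = 0.0238, adjusted 0.0397), with values of 0.96 to 1.57 in nAAC and 1.42 to 1.82 in sham. Myh7 against the score was higher by 2.63 (exact permutation p = 0.00794, adjusted 0.0198). Markers of the score rose and fell themselves, as given above.

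**Figure D2:**
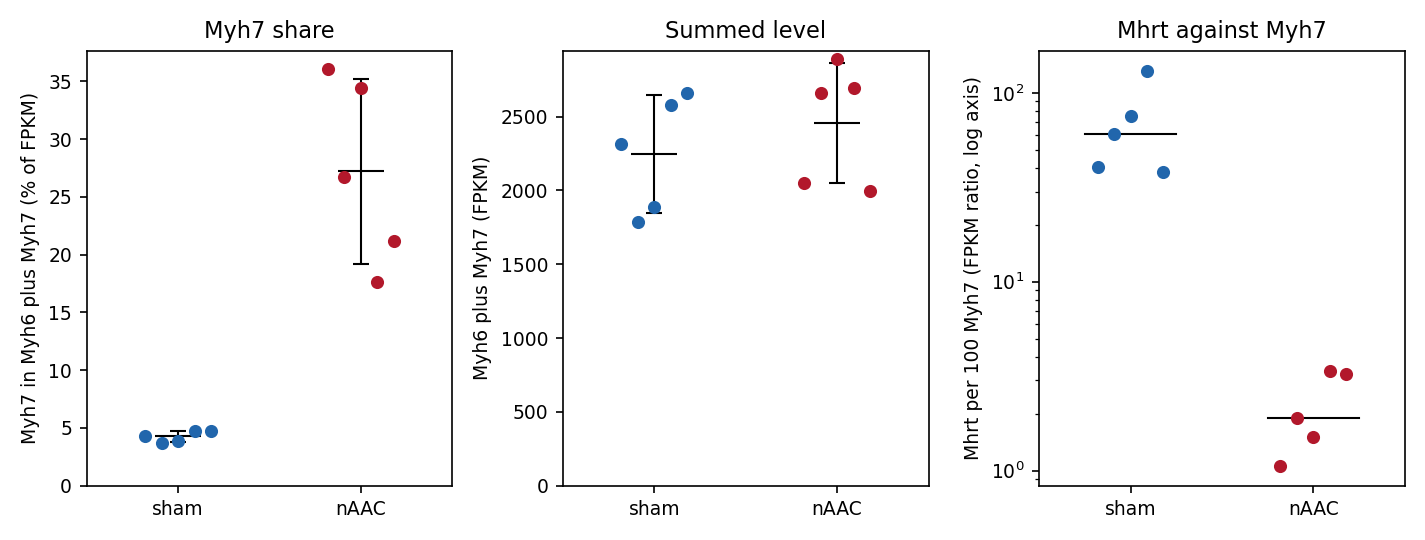
Left, Myh7 as a percentage of Myh6 plus Myh7 FPKM; middle, their summed FPKM; right, Mhrt per 100 Myh7 on a log axis; each point is a library (blue sham, red nAAC), black marks are mean ± SD at left and middle and the median at right. The share and the Mhrt ratio separate the groups (17.6 to 36.0% against 3.72 to 4.78%, and 1.06 to 3.37 against 38.2 to 131), while the sums overlap.

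Mhrt, the antisense RNA of Myh7, went the opposite way to its host locus. Its FPKM was 7.82, 13.5, 15.0, 16.0 and 13.7 in nAAC libraries 1 to 5. In sham libraries it was 40.2, 40.1, 54.7, 162 and 47.7. Every nAAC library lay below every sham library, and sham replicate 4 stood about 3 times above the other sham libraries. The means were 13.2 ± 3.18 and 68.9 ± 52.2 FPKM, and Mhrt fell by 2.10 on the log2 scale (SE 0.33, limma adjusted p = 4.54e-04). Without sham replicate 4 the log2 FC was -1.74 (SE 0.18, limma adjusted p = 2.89e-05).

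Per 100 FPKM of Myh7, Mhrt was at 1.06, 1.89, 1.51, 3.37 and 3.24 in nAAC libraries. In sham libraries it was at 40.5, 60.4, 75.4, 131 and 38.2, and in sham replicate 4 Mhrt exceeded Myh7 per length. The log2 ratio differed by -4.95 (exact permutation p = 0.00794, 0.0198 adjusted over 5 ratios). Because Myh7 and Mhrt each separated the groups in opposite directions, their ratio had to separate them too. Its p-value therefore adds nothing to the results of the 2 genes. From coverage the ratios were 0.985 to 3.06 and 36.4 to 126. In rank among nonmitochondrial genes, Mhrt stood at 544 in sham and 3275 in nAAC.

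The row of Mir208b, the hairpin inside Myh7, also fell while Myh7 rose. It was listed at 2.11, 4.39, 0.431, 2.80 and 2.97 FPKM in nAAC libraries 1 to 5. In sham libraries it was listed at 9.38, 8.25, 5.61, 13.9 and 9.97 FPKM. The groups did not overlap, although nAAC replicate 2 came near sham replicate 3. The log2 FC was -1.63 (SE 0.31, limma adjusted p = 1.44e-03). These reads come from a library of long RNA and cover a gene of 77 bases, with 172 to 1753 aligned bases in nAAC and 2266 to 5466 in sham libraries. They measure RNA over the hairpin's interval rather than the 22-base miRNA printed above. Since the library kit was taken not to mark strand, the reads may come from either strand of this interval. Per 100 FPKM of Myh7, a ratio chosen after its values were seen, Mir208b was at 0.0434 to 0.701 in nAAC and 7.73 to 12.4 in sham.

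The other hosted hairpins gave little signal. Mir208a, in intron 29 of Myh6-201, stayed below the filter, at most 1.18 FPKM in sham replicate 1 and 0.293 FPKM in nAAC replicate 1, and it was listed at 0 in 3 nAAC libraries. Mir499, in intron 19 of Myh7b-201, was listed at 0 in all 10 libraries. No statement on mature miR-208a or miR-499 follows from these rows.

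Myh7b, the third cardiac myosin heavy chain gene, was low and variable. It stood at 1.93, 4.37, 4.69, 4.20 and 3.83 FPKM in nAAC libraries and at 2.11, 1.31, 1.17, 3.30 and 4.40 FPKM in sham libraries. The nAAC values clustered near 4 apart from replicate 1, and sham replicates 4 and 5 reached into the nAAC range. The means were 3.80 ± 1.09 and 2.46 ± 1.38 FPKM, with a log2 FC of 0.53 (SE 0.26, limma adjusted p = 0.132). That call depended on single libraries: without nAAC replicate 1 the log2 FC was 0.70 (limma adjusted p = 0.0462), and without sham replicate 5 it was 0.71 (limma adjusted p = 0.035). With Xist as a covariate it was 0.30 (limma adjusted p = 0.551). Against Myh6 plus Myh7 its log2 ratio differed by 0.62 (exact permutation p = 0.0873, adjusted 0.109), and without sham replicate 5 by 0.81 (exact permutation p = 0.0317).

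Other rows of the tables overlap the chromosome 14 genes. Gm31251 (ENSMUSG00000115610, chr14:54979393-54991601), a plus-strand row inside Myh7, ranged from 1.09 to 2.41 FPKM in nAAC and from 2.55 to 5.09 in sham libraries, without overlap. It fell by 0.77 on the log2 scale (SE 0.17, limma adjusted p = 0.0048). Gm49130 (ENSMUSG00000115234, chr14:54940355-54942852), a plus-strand row over the 3' end of Myh6, ranged from 0.529 to 1.47 FPKM in nAAC and from 1.25 to 3.20 in sham libraries, and fell by 0.63 (SE 0.17, limma adjusted p = 0.0155). Together with Mhrt, 3 plus-strand rows at the locus were tested and fell. The minus-strand rows differed among themselves: Myh7 rose, Mir208b fell, and Myh6, which Gm49130 overlaps, did not pass. Neither Gm31251 (limma adjusted p = 0.0509) nor Gm49130 (0.0745) passed with Xist as a covariate, and Gm49130 did not pass without the filter on low values (0.0535). Exonic overlap with the host gene was 41.9% for Gm31251 and 16.1% for Gm49130, so the same limit holds for their reads. The remaining rows there, Gm29015 and Gm17428, were below the filter.

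**Figure D3:**
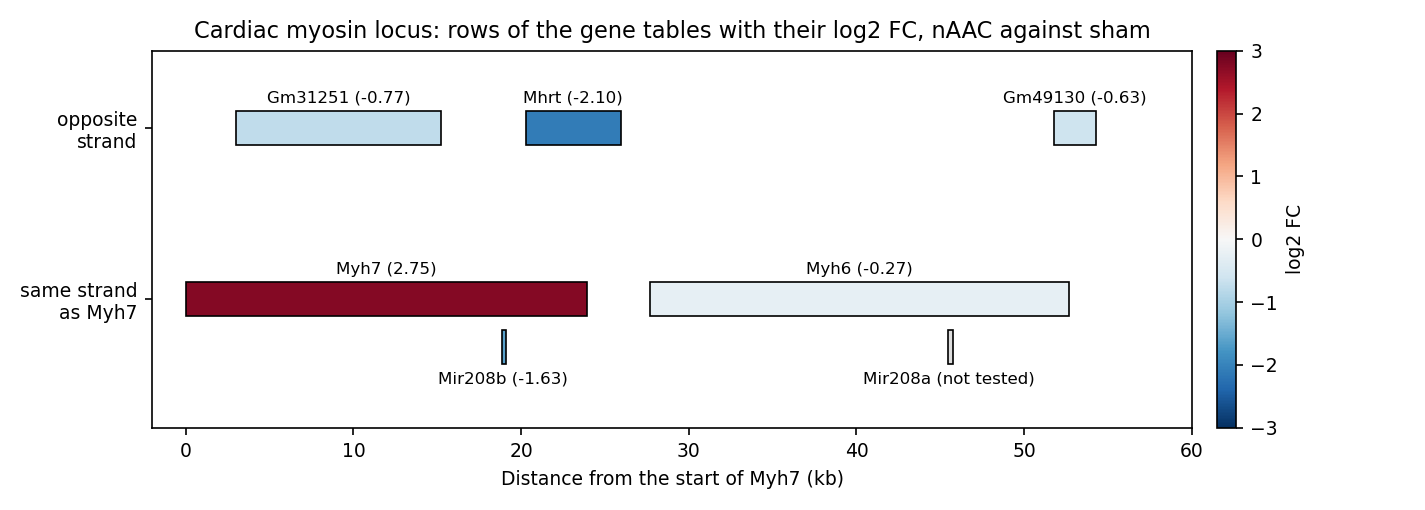
Gene intervals of the cardiac myosin locus by distance in kb from the start of Myh7 along its direction, on the strand of Myh7 (below) or the opposite strand (above), coloured by log2 FC, which is also printed; Mir208a was not tested, and the untested rows Gm29015 and Gm17428 are left out. Myh7 (2.75) is flanked and overlapped by rows with negative values: Mhrt (-2.10), Mir208b (-1.63) and Gm31251 (-0.77).

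Xist moved with the groups, so the members were also read within libraries of like Xist level. Among libraries with Xist above 1 FPKM, Myh7 was at 424 to 995 FPKM in 4 nAAC and at 123 to 125 FPKM in 2 sham libraries. Among those below, it was at 713 FPKM in 1 nAAC and at 66.4 to 99.1 FPKM in 3 sham libraries. The order held for Mhrt in both classes (7.82 to 16.0 against 47.7 to 162, and 13.5 against 40.1 to 54.7) and for Mir208b (0.431 to 2.97 against 9.97 to 13.9, and 4.39 against 5.61 to 9.38). Myh6 did not overlap in the upper class (1312 to 2218 against 2458 to 2538) and did in the lower (1950.1 against 1720.5 to 2215). Myh7b overlapped in the upper class (1.93 to 4.69 against 3.30 to 4.40) and did not in the lower (4.37 against 1.17 to 2.11). With Xist as a covariate the log2 FC was 2.62 for Myh7 (limma adjusted p = 1.37e-04), -2.27 for Mhrt (0.00249) and -1.53 for Mir208b (0.0159), all still past the threshold. In the same fit it was -0.33 for Myh6 (limma adjusted p = 0.371) and 0.30 for Myh7b (0.551).

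The upstream windows of Myh6, Myh7, Myh7b and Mhrt (250 bases before the RefSeq start, GRCm38.p6) were searched on both strands for CATTCC (the MCAT element, bound by TEAD factors), AGGTCA (a nuclear receptor site, as for thyroid hormone receptors), AGATAA (recognised by factors such as Gata4), its variant form TGATAA (likewise), TATAAA (where the basal machinery binds, the TATA box) and CANNTG (the E box). CATTCC occurred in the windows of Myh6, Myh7 and Mhrt, always on the opposite strand, against 12.6% of 32851 windows in the table. Each is shown with 30 bases around it, the motif read as GGAATG in capitals, at chr14:54966796-54966825, chr14:54994810-54994839 and chr14:54968555-54968584; the Mhrt window was added after its values were seen.
Myh6, 206 bases upstream: ctttggggaggaGGAATGtgcccaaggact
Myh7, 201 bases upstream: ctagtgagccgtGGAATGttagagatattt
Mhrt, 220 bases upstream: ctcagggaacctGGAATGccactcaggcca
RefSeq lists 2 starts for Myh7, and the window of the more downstream start held no MCAT element. The RefSeq start of Myh6, chr14:54966607, lies inside the gene interval given above, and so does its MCAT match. The nuclear receptor site (14% of windows) and the GATA site AGATAA (9.99%) occurred only in the Myh7b window. The other GATA form (7.94%) and the TATA box (12.4%) occurred in none of them, and the E box (66.2%) occurred in each. No mapped factor binding was measured, and these matches are a description of letters only.

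Regulators known to act on these genes were read from the same tables. Of 19 tested, 3 rose, 2 fell and 14 did not pass, with a median log2 FC of -0.03 against 0.22 over all tested genes, of which 27.1% rose and 4.6% fell at the same threshold. Srf, a serum response factor with targets among sarcomere genes, rose by 1.0 on the log2 scale (SE 0.17, limma adjusted p = 8.00e-04), from 12.8 to 22.4 FPKM in sham to 31.4 to 44.9 in nAAC libraries. Gata4, a cardiac GATA factor, rose by 0.72 (SE 0.16, limma adjusted p = 0.00447), and Smarca4, the Brg1 gene, by 0.48 (SE 0.11, limma adjusted p = 0.00504). Mef2a, a MADS-box factor of muscle genes, fell by 0.60 (SE 0.17, limma adjusted p = 0.016), and Hdac2, a histone deacetylase, by 0.32 (SE 0.11, limma adjusted p = 0.0411). The counts moved with the processing: 2 rose (Srf and Gata4) and 6 fell after median-ratio scaling, 5 rose and 0 fell with TPM, and with Xist as a covariate 1 rose (Srf) and 0 fell. Smarca4 lost its call after median-ratio (0.23, limma adjusted p = 0.0962) and upper-quartile scaling (0.24, 0.0989), from coverage (0.26, 0.0553) and with Xist as a covariate (0.40, 0.0559). Mef2a lost its call with TPM (-0.44, limma adjusted p = 0.0564) and with Xist as a covariate (-0.47, 0.134). The call of Hdac2 was lost with TPM (-0.15, limma adjusted p = 0.313), with Xist as a covariate (-0.33, 0.125), and without any of the nAAC replicates or without sham replicate 2 or 3, with a log2 FC of -0.58 to -0.15 over all alternatives.

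The thyroid hormone receptors and Tead1, whose sites were searched above, did not pass as reported. Thra, the main cardiac receptor gene, had a log2 FC of -0.20 (limma adjusted p = 0.399; -0.47 and 0.0299 after median-ratio scaling). Thrb had a log2 FC of -0.67 (limma adjusted p = 0.0527), with 0.890 to 2.07 FPKM in nAAC and 1.05 to 4.95 FPKM in sham. It passed after median-ratio (-0.86, limma adjusted p = 0.0238) and upper-quartile scaling (-0.86, 0.0301) and without sham replicate 4 (-0.92, 9.98e-04). From coverage it also passed (limma adjusted p = 0.0476), but with a far smaller log2 FC of -0.12 (SE 0.039, against 0.24 as reported). Why the value shrank there was not tested. Tead1 was at 19.7 to 22.9 FPKM in nAAC and, in sham, at 1.81 FPKM in replicate 4 and up to 15.6 FPKM in the others (log2 FC 0.93, limma adjusted p = 0.0973). Without sham replicate 4 the log2 FC of Tead1 was 0.43 (limma adjusted p = 0.00425), and with TPM it was 1.13 (limma adjusted p = 0.0457). Sham replicate 4 stood apart in other genes too. It held the lowest sham values of Ttn (7.39), Ryr2 (31.9) and Med13 (2.08 FPKM). It also held the highest of Tcap (2122), Tnnt2 (5959), Tnni3 (5287) and Mhrt (162 FPKM). Among known targets of the miR-208 and miR-499 family, none passed: the log2 FC was -0.09 for Sox6, 0.19 for Purb, -0.03 for Sp3 and -0.07 for Med13 (limma adjusted p = 0.308 to 0.900).

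Other class II myosin heavy chain genes encode the nonmuscle, smooth muscle and skeletal motors. Of 11, 4 passed the filter, and 3 of these rose, where 27.1% of all tested genes did. Myh10, nonmuscle myosin IIB, was at 8.83 to 12.3 FPKM in nAAC and 2.20 to 4.13 FPKM in sham libraries (log2 FC 1.36, SE 0.14, limma adjusted p = 1.35e-05). Myh11, the smooth muscle chain, was at 6.52 to 15.4 and 2.59 to 5.72 FPKM (log2 FC 1.25, SE 0.22, limma adjusted p = 9.33e-04), and Myh9, nonmuscle IIA, at 14.9 to 25.7 and 6.72 to 12.8 FPKM (log2 FC 0.96, SE 0.18, limma adjusted p = 0.00133). These 3 are nonmuscle and smooth muscle chains, and markers of other cell types than cardiomyocytes were mixed. Of smooth muscle markers 4 of 5 rose, Myh11 among them (summed 87.4 to 182 FPKM in nAAC, 72.2 to 97.6 in sham). Of fibroblast markers 5 of 6 rose (481 to 864 against 344 to 371). Only 1 of 5 endothelial markers rose (133 to 244 against 125 to 199). Of 4 macrophage and leukocyte markers tested, 0 rose (12.4 to 32.7 against 12.4 to 19.0, all 5 summed). The part of these cell types in the myosin values was not tested. Myh14 had a log2 FC of 0.18 (limma adjusted p = 0.555). The skeletal chain genes Myh1, Myh2, Myh3, Myh4, Myh8 and Myh13 and the class II gene Myh15 stayed at or below 0.0561 FPKM in every library, so skeletal chains contributed next to nothing to the myosin heavy chain mRNA measured here.

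Thick filament partners bind, chaperone or modify the heavy chains. Of 13, 4 rose and 9 did not pass, a share close to the 27.1% of all tested genes that rose. Mybpc2, the fast skeletal myosin binding protein C gene, was at 10.3 to 31.4 FPKM in nAAC and 0.768 to 2.74 FPKM in sham libraries (log2 FC 3.26, SE 0.26, limma adjusted p = 1.87e-06). The other fast skeletal markers summed to 0.718 to 1.93 FPKM in nAAC and 1.39 to 2.80 FPKM in sham libraries, with Tnnc2 listed at 0 throughout. Hspb1, a small heat shock protein, rose by 1.91 (SE 0.20, limma adjusted p = 1.44e-05), and Mybpc3, the cardiac myosin binding protein C gene, by 0.86 (SE 0.17, limma adjusted p = 0.00254). Smyd1, a methyltransferase of muscle, rose by 0.36 (SE 0.12, limma adjusted p = 0.037), a call lost after median-ratio scaling (0.08, limma adjusted p = 0.639), after upper-quartile scaling (0.09, 0.544), from coverage (0.08, 0.554), with Xist as a covariate (0.33, 0.16) and without any of the nAAC replicates or without sham replicate 1, 2 or 3 (0.32 to 0.40 over all libraries left out in turn).

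The essential and regulatory light chain genes of the ventricle did not pass and spread widely, with a log2 FC of 0.05 for Myl2 (SE 0.32, limma adjusted p = 0.922) and 0.04 for Myl3 (SE 0.24, limma adjusted p = 0.918). The atrial light chain genes varied far more between libraries than between groups: Myl4 ran from 1.34 to 128 FPKM in nAAC and from 1.82 to 17.8 FPKM in sham (log2 FC 1.32, SE 1.01, limma adjusted p = 0.334), and Myl7 from 0.654 to 79.8 and from 1.16 to 22.3 FPKM (log2 FC 0.88, SE 1.02, limma adjusted p = 0.528). Atrial markers summed to 6324 to 11743 FPKM in nAAC and 99.4 to 209 FPKM in sham libraries. Nppa, which the loaded ventricle also expresses, made up nearly all of the nAAC sums. Without Nppa they summed to 3.76 to 240 and 12.8 to 55.0 FPKM, with Bmp10 at most 0.0106 FPKM. The highest values lay in nAAC replicates 2 and 3 for Myl4 (71.1 and 128), Myl7 (54.0 and 79.8) and Sln (9.23 and 19.4 FPKM). Mybphl was highest there too (4.41 and 6.75 FPKM), whereas Stard10 was highest in sham replicate 4 (15.2 FPKM). The part of atrial transcripts in the Myh6 values of these libraries was not tested.

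**Figure D4:**
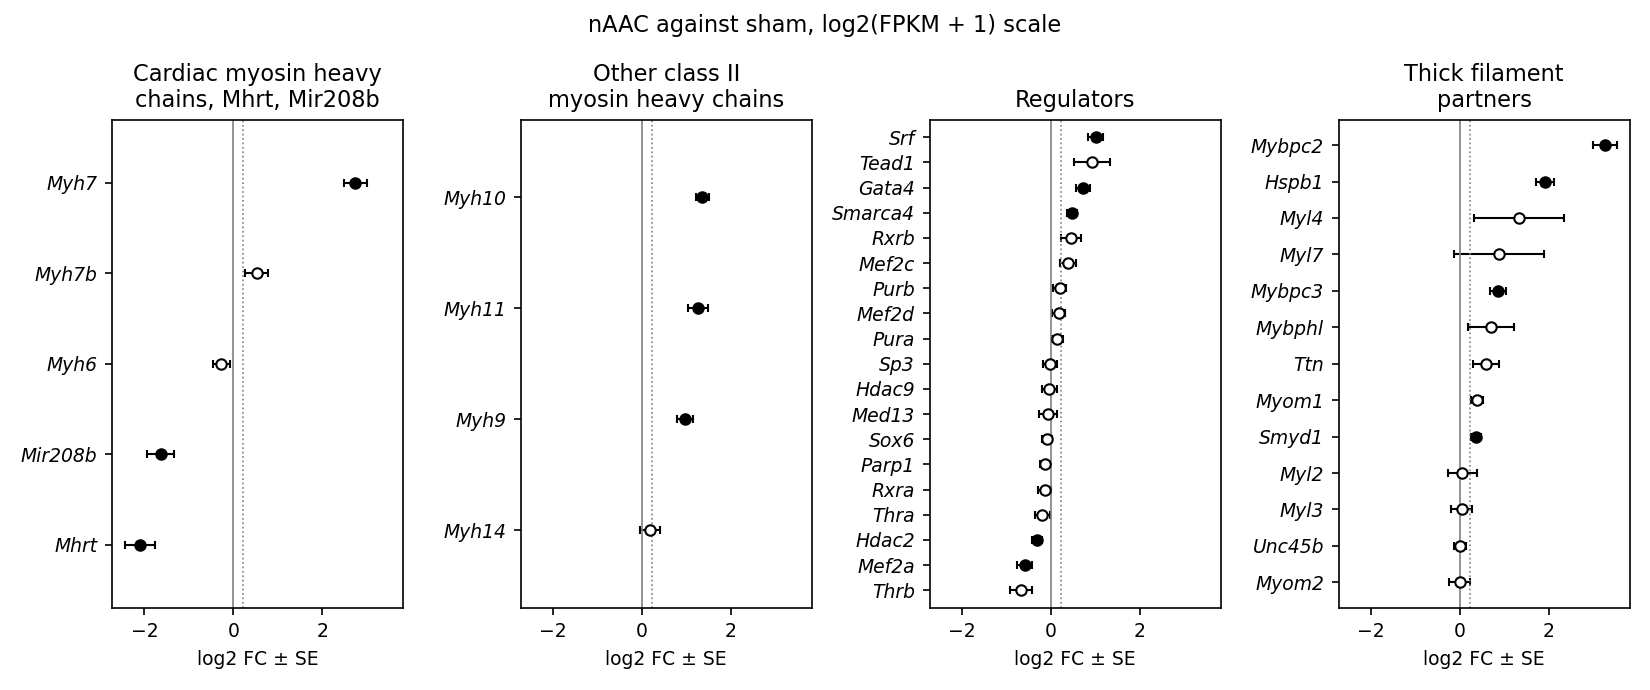
log2 FC ± SE, nAAC against sham on the log2(FPKM + 1) scale, for the tested genes among the 5 members, the other class II myosin heavy chains, the regulators and the thick filament partners, with filled points for limma adjusted p below 0.05, a solid line at 0 and a dotted line at the median of all tested genes (0.22). Among these, Mybpc2 and Myh7 lie furthest right, Mhrt and Mir208b furthest left, and most regulators lie near 0.

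Genes with profiles most like the members were found by the root mean square (RMS) difference between centred log2(FPKM + 1) profiles over 10 libraries, among 8369 genes. Among the nearest to Myh7 were Cnksr1 (RMS 0.28), Synpo2l (0.31), Uck2 (0.33) and Nupr1 (0.33), where the median gene was at 1.35. Nearest to Myh6 were Pfkm (0.09), Ccdc28a (0.11), Pygm (0.11), Foxred1 (0.12) and Amacr (0.12), with the median gene at 0.39. For Mhrt, a comparison added after its values were seen, they were Rpl3l (0.42), Maob (0.43), Rgs2 (0.44), H19 (0.45) and Il15 (0.46), with the median gene at 1.30. The closest profiles to Mhrt were thus further from it in RMS than those of Myh7 or Myh6 from theirs. RMS is not scaled to each gene's own spread, and the median gene was also further from Mhrt than from Myh6. All of these distances rest on the same 10 libraries.

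**Figure D5:**
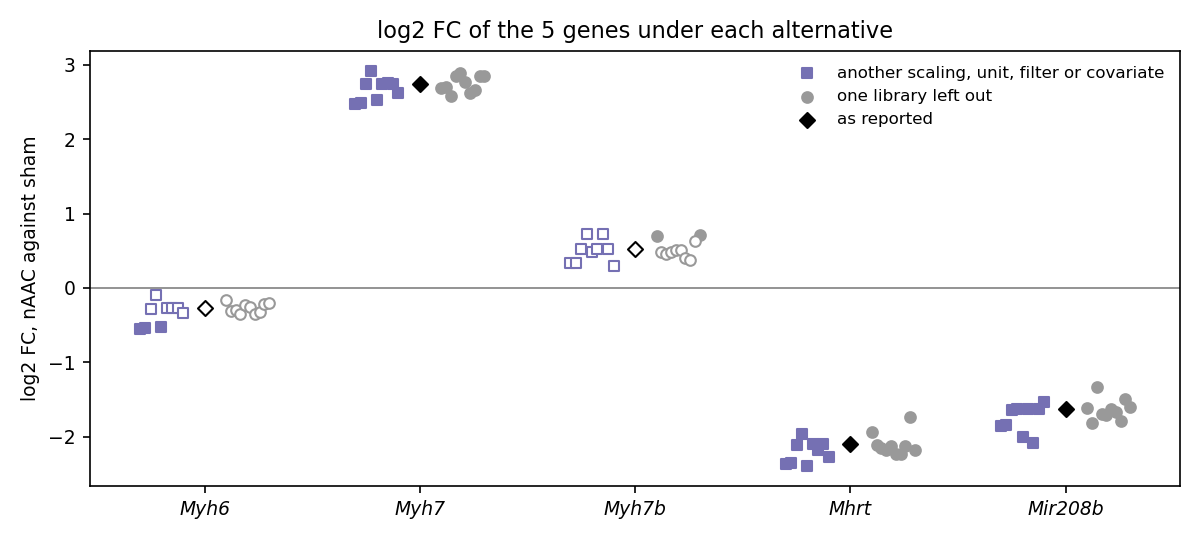
log2 FC of the 5 genes as reported (diamond), under 9 alternatives of scaling, unit, filter, pseudocount or covariate (squares) and with each of 10 libraries left out (circles); filled symbols have a limma adjusted p below 0.05. Myh7, Mhrt and Mir208b keep sign and call throughout, while filled and open symbols mix for Myh6 (-0.55 to -0.10) and Myh7b (0.30 to 0.72).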

How the data were processed

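The authors deposited a gene table for each library with coverage, FPKM and TPM columns per gene, made on mm10; the aligner, the quantifier and their settings are not given in the sources used here. The deposited coverage is mean read depth per base, and the deposited FPKM and TPM are normalized to library size and length. No read counts were used. Rows sharing a gene ID (12 to 21 per table) were summed. Genes with a mean of at least 1 FPKM were tested on log2(FPKM + 1) with limma 3.58.1 (R 4.3.3, trend) and Benjamini-Hochberg adjustment over 11867 genes, so fold changes of low genes are understated. The Myh7 share, the summed level and 5 log2 ratios were tested by two-sided exact permutation (scipy 1.17.1). The method was checked on simulated data. Depth was estimated from the ratio of coverage to FPKM and is approximate. Of 55401 gene IDs, 55141 are in GENCODE M21, and all 5 genes have the same start and end there. Named genes were the 5 members, their lists, overlapping rows and the 5 nearest profiles, of which 1 near Myh7 is not reported here. The members and lists were chosen with earlier results of these data known.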

Additional observations from a re-analysis of the deposited data

Results flagged for a closer look

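Several values lay far from the rest of their group of 5 by Dixon's ratio of gap to range (critical value 0.71); 36 groups were examined, of which chance alone would mark about 1.8, and 4 passed. Myh7b in nAAC replicate 1 was the lowest of its group (ratio 0.754), and so was Mhrt in the same library (0.753). Mhrt in sham replicate 4 was the highest of its group (0.779). That library also stood apart in other genes, as given above with Tead1. Mir208a in nAAC replicate 1 was the highest of its group (0.981), at 0.293 FPKM, with the others at or near 0.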

How the results depend on the processing

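Over 9 alternatives of scaling, unit, filter, pseudocount or covariate and 10 fits with a library left out, Myh7 (2.47 to 2.92), Mhrt (-2.39 to -1.74) and Mir208b (-2.08 to -1.34) kept their direction and call. With a library left out the log2 FC was 2.59 to 2.90 for Myh7, -2.24 to -1.74 for Mhrt, -1.81 to -1.34 for Mir208b, -0.35 to -0.16 for Myh6 and 0.38 to 0.71 for Myh7b. Myh6 passed after median-ratio scaling (-0.55), upper-quartile scaling (-0.54) and from coverage (-0.53). The count of members that rose was 1 to 2 with a library left out; it was 2, Myh7b added, without nAAC replicate 1 or sham replicate 5. The DEG count, 701 as reported, was 1140 with TPM, 1121 with a pseudocount of 0.1 and 662 to 784 with a library left out. Myh7b against Myh6 plus Myh7 passed from coverage (0.83), and was 0.46 to 0.81 with a library left out. The sum of Myh6 and Myh7 turned to -0.15 after median-ratio scaling, and against the cardiomyocyte score it was -0.051 to 0.049 with a library left out.

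Replicate numbers were shared only as numbers: deviations of same-numbered libraries correlated at -0.316 to 0.192, and 0 of 5 nAAC libraries correlated best with their own number. With a replicate block the DEG count was 704, the 5 members kept their calls, and Hdac2 and Smyd1 lost theirs. The paired sign-flip test with replicate numbers as pairs left the Myh7 share at 22.9 points, Mhrt to Myh7 at -4.95 and Myh7 to the score at 2.63, each at 0.0625, the smallest p that 5 pairs allow, and Myh6 to the score at -0.41 (exact p = 0.125).

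Small values changed sign. By median-ratio scaling, upper-quartile scaling and coverage, in that order, Myh14 was at -0.066, -0.053 and -0.074, Purb at -0.062, -0.051 and -0.057, Myl2 at -0.23, -0.22 and -0.19, and Myl3 at -0.24, -0.23 and -0.24. With Xist as a covariate Myh14 was at -0.11, Myl2 at -0.075, Myl3 at -0.094, Sp3 at 0.0081 and Med13 at 0.027, and with TPM Sp3 was at 0.13, Sox6 at 0.024 and Med13 at 0.077. With a library left out Myl2 ranged from -0.095 to 0.27, Myl3 from -0.073 to 0.23, Sp3 from -0.13 to 0.054 and Med13 from -0.28 to 0.044. FPKM without counts sets no counting floor for the low rows Mir208a, Mir208b, Mir499 and Myh7b.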
